A study of Sus scrofa with 9 samples.

Results

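The 10 genes described here encode titin (TTN), the proteins that anchor titin and actin at the Z-disc (TCAP, ACTN2, LDB3, CSRP3, NEXN and FLNC), the Xin repeat proteins of the intercalated disc (XIRP1 and XIRP2) and the intermediate filament protein desmin (DES). They were taken by gene symbol from a table of 30942 genes, and all 10 were found and passed the filter on low counts. The table holds RNA counts from hearts of miniature pigs of wild-type genotype in 3 groups of 3 libraries each. The groups received vehicle, doxorubicin, or doxorubicin with formononetin. Doxorubicin is an anthracycline used in chemotherapy that is toxic to heart muscle, and formononetin is a plant isoflavone. Breed, age, sex, dose, duration and the part of the heart sampled were not stated in the sources used here. The labels do not tie libraries to animals, so the p-values reflect the spread among these libraries only, and that spread may be technical.

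In striated muscle the sarcomere is bounded by Z-discs, where actin filaments of opposite polarity are cross-linked and where the amino-terminal end of titin is fixed. Titin runs from the Z-disc to the M-band and acts as a molecular spring that sets passive stiffness. Desmin filaments surround the Z-discs and tie neighbouring myofibrils to each other, to the cell membrane, to the nucleus and to mitochondria. Several of these proteins also take part in sensing mechanical load, and mutations in many of them cause cardiomyopathy in humans.

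With doxorubicin the desmin and Xin transcripts were higher and the transcripts of titin, its cap and alpha-actinin were lower. Of these changes, only those of DES and XIRP2 were called in all 19 alternative analyses given at the end. In the analysis scaled to cardiomyocyte marker genes, TTN, TCAP and ACTN2 were not lower. That scaling moves every gene alike, with the median of all genes then at 0.55 on the log2 scale. Falls smaller than that shift turn in sign by construction, here and below. With formononetin added, desmin and XIRP2 were lower than with doxorubicin alone and not called different from vehicle, and CSRP3 and NEXN were also lower than with doxorubicin alone. Of the 10 genes, 3 rose (XIRP2, DES and XIRP1) and 3 fell (TTN, TCAP and ACTN2) with doxorubicin against vehicle at an adjusted p under 0.05 by the edgeR quasi-likelihood test. Over all 14846 genes tested in that comparison, 33.3% were called, 16.3% higher and 17% lower. With doxorubicin plus formononetin against doxorubicin 2 of the 10 rose (TTN and TCAP) and 4 fell (XIRP2, DES, CSRP3 and NEXN), where 28.1% of all genes were called, 14.7% higher and 13.5% lower. Against vehicle, none of the 10 was called with doxorubicin plus formononetin, where 1.76% of all genes were called, 0.956% higher and 0.808% lower. That last count was 1 by DESeq2 and 1 by limma-voom, NEXN in each case, and 3 of the 10 had an unadjusted p under 0.05 by edgeR. The share of all genes past that unadjusted threshold is not given here, so those 3 cannot be set against it.

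Library totals ranged from 16291952 to 17549359 counts, and the 10 genes together took 1.75% to 2.15% of them. Cardiac muscle genes were strongly expressed in every library, with MYH7, the slow ventricular myosin heavy chain, at 24449 to 37656 CPM (counts scaled to 1e+06 per library, with TMM factors, here and below). The 9 skeletal muscle markers summed to 1.26 to 6.80 CPM with vehicle, 36.8 to 76.9 CPM with doxorubicin and 0.573 to 7.85 CPM with doxorubicin plus formononetin. MYL1, a light chain, made up nearly all of that rise, while the fast myosin MYH4 was at 0 in all libraries and MYH1 and MYH2 were at or near it. The second doxorubicin plus formononetin library had 14766 genes with a count, against 18107 to 19304 in the other 8, and it was the lowest of the 9 libraries for 3 of the 10 genes and the highest for none. The counts of calls among the 10 genes and the lists of their partners are given with and without it below. Mitochondrially encoded genes took 20.7% to 21.3% of counts with vehicle, 23.3% to 24.4% in the doxorubicin group and 22.04% to 28.8% with doxorubicin plus formononetin.

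Some cell type and chamber markers moved with the groups, and their part in the results below was not tested. The summed level of 10 matched cardiomyocyte markers was 67107 to 76313 CPM with vehicle, 44374 to 53067 CPM with doxorubicin and 58203 to 63436 CPM with doxorubicin plus formononetin. Of these markers 8 fell and 1, the SERCA inhibitor PLN, rose with doxorubicin, and none was at 0. When formononetin was added, 6 of the 10 rose and none fell against doxorubicin alone. Of 3 atrial genes, chosen after values were seen, MYL7, the atrial regulatory light chain, lay at 654 to 744 CPM with vehicle, 13.7 to 26.8 CPM with doxorubicin and 368 to 708 CPM with doxorubicin plus formononetin. The other 2 stayed low under both compounds and varied widely. MYL4, the atrial essential light chain, lay at 6.55 to 39.6 CPM with vehicle, 0.307 to 10.7 CPM under doxorubicin and 0.548 to 6.29 CPM under both compounds. NPPA, the atrial natriuretic peptide gene, lay at 40.2 to 214 CPM with vehicle, 2.46 to 36.1 CPM under doxorubicin and 0.973 to 22.2 CPM under both compounds. Smooth muscle also makes desmin. The 6 smooth muscle markers summed to 439 to 668 CPM with vehicle, 341 to 485 CPM with doxorubicin and 387 to 1359 CPM with doxorubicin plus formononetin. Of these 3 fell and none rose with doxorubicin, and with formononetin added 3 rose and none fell. The 6 fibroblast markers summed to 1993 to 3486 CPM with vehicle, 1985 to 2798 CPM under doxorubicin and 2182 to 5020 CPM under both compounds, and 2 of them, PDGFRA and DCN, fell with doxorubicin. The 6 endothelial markers summed to 967 to 1356 CPM with vehicle, 795 to 932 CPM under doxorubicin and 1107 to 1241 CPM under both compounds, and 4 of them fell with doxorubicin. The 6 macrophage and leukocyte markers summed to 95.9 to 128 CPM with vehicle, 125 to 154 CPM under doxorubicin and 119 to 139 CPM under both compounds, and 2 of them, PTPRC and AIF1, rose with doxorubicin. With formononetin added 3 fibroblast and 3 endothelial markers rose and 2 macrophage and leukocyte markers fell, and none of the markers of these cell types was at 0 in any library. In bulk tissue, fewer cells of a type and less RNA per cell cannot be told apart.

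TTN, DES and XIRP2 lie on chromosome 15 of the pig assembly Sscrofa11.1, at 84226953 to 84501320, 121428539 to 121435426 and 73665876 to 73741046. ACTN2 (54670727 to 54742717) and LDB3 (87660961 to 87722249) are on chromosome 14. TCAP is on chromosome 12 (22651666 to 22652904), XIRP1 on chromosome 13 (23867476 to 23876850) and CSRP3 on chromosome 2 (40219288 to 40240614). NEXN on chromosome 6 (135315000 to 135382911) overlaps FUBP1, and FLNC on chromosome 18 (19759734 to 19787616) overlaps a long noncoding RNA, LOC110257581, each on the opposite strand. FUBP1 had 689 to 1027 counts per library and the noncoding RNA 0 to 26, while NEXN had 4111 to 6783 and FLNC 17774 to 26242. How the authors' counting treated strand was not stated in the sources used here.

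Per kilobase of the deposited gene length, the order of levels with vehicle ran from TCAP at 2299 ± 176 CPM per kilobase (SD, n = 3) to XIRP2 at 11.6 ± 2.87. Between them came DES at 1498 ± 162, ACTN2 at 830 ± 74.7, CSRP3 at 735 ± 148, LDB3 at 274 ± 29.2, FLNC at 136 ± 12.3, TTN at 65.8 ± 9.13, XIRP1 at 52.5 ± 10.1 and NEXN at 49.1 ± 1.30 CPM per kilobase. The ranges of ACTN2 and CSRP3 overlapped, as did those of TTN and XIRP1 and of XIRP1 and NEXN, so these neighbours are not ordered beyond their spread. TTN was the 15th most counted gene of the table because its deposited length is 104486 bases. With doxorubicin DES stood first at 2209 ± 125 CPM per kilobase and TCAP second at 1612 ± 220, and CSRP3 (985 ± 157) stood above ACTN2 (645 ± 15.6), in each pair with no overlap. XIRP1 (77.5 ± 12.5) also stood above TTN (50.3 ± 4.18) with doxorubicin, without overlap. With doxorubicin plus formononetin the means of the 10 genes ran in the vehicle order, with TCAP at 2112 ± 240 and DES at 1259 ± 92.5 CPM per kilobase. The ranges of ACTN2 and CSRP3 overlapped there too. So did those of TTN (64.0 ± 3.29) and XIRP1 (63.1 ± 4.97), so these neighbours are not ordered beyond their spread.

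**Figure D1:**
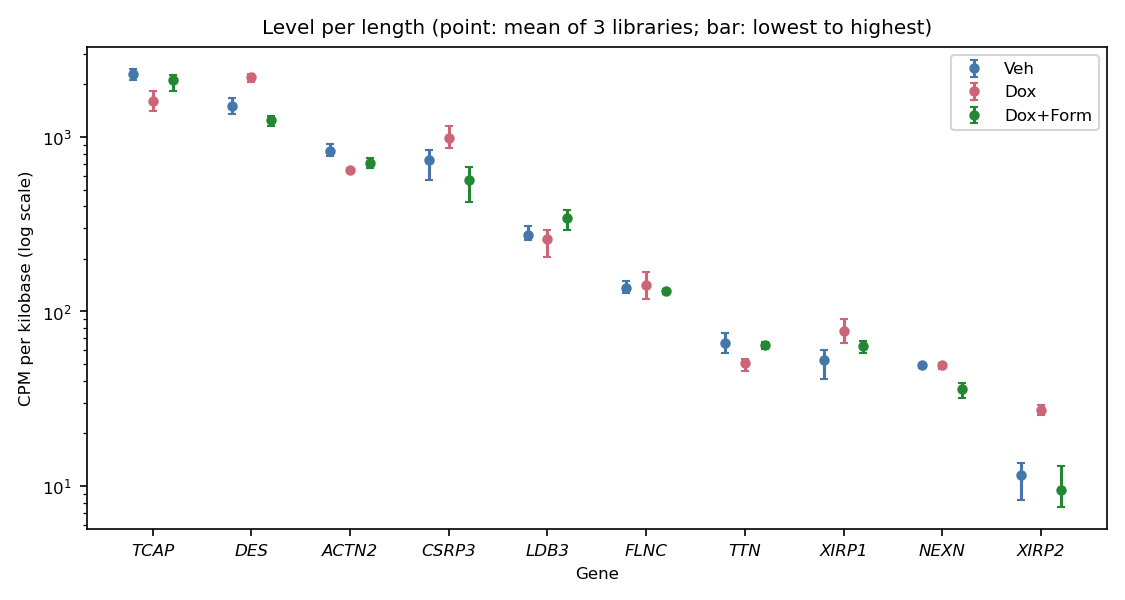
Level per length of the 10 genes, in CPM per kilobase on a log axis, with the mean (point) and the lowest and highest of 3 libraries (bar) for vehicle, doxorubicin (Dox) and doxorubicin plus formononetin (Dox+Form). DES stands above TCAP in the doxorubicin libraries alone, at 2209 against 1612 CPM per kilobase.

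Titin is the largest known protein of the sarcomere and its elastic spring. TTN levels were 6018, 7901 and 6691 CPM in the vehicle libraries, 5469, 5551 and 4757 CPM with doxorubicin, and 6325, 7008 and 6741 CPM with doxorubicin plus formononetin. Every doxorubicin library lay below every library of the other groups. The fall with doxorubicin was small, a log2 fold change of -0.39 ± 0.12 (SE, adjusted p = 0.0270 by edgeR's quasi-likelihood test), and turned to 0.17 (adjusted p = 0.358) when libraries were scaled to the cardiomyocyte markers. The rise with formononetin added was 0.35 ± 0.12 on the log2 scale (adjusted p = 0.0475). Neither call was firm. The first was lost when vehicle replicate 2 or 3 or any doxorubicin replicate was left out (highest adjusted p = 0.136, a log2 fold change of -0.27, without vehicle replicate 2). The second was lost in 12 of 19 alternative analyses, including the one without doxorubicin plus formononetin replicate 2 (0.32, adjusted p = 0.0924).

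The titin transcript is by far the longest of the 10. Among the 364 tested genes with a deposited length of at least 15000 bases, the median log2 fold change was 0.02 with doxorubicin against vehicle and 0.01 with doxorubicin plus formononetin against doxorubicin. The 1485 longest genes had medians of 0.04 and -0.04, close to 0 in both comparisons.

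TCAP encodes telethonin, which joins the ends of neighbouring titin molecules inside the Z-disc. Its levels were 2271, 2392 and 2054 CPM with vehicle, 1371, 1543 and 1797 CPM with doxorubicin, and 2175, 1788 and 2210 CPM with doxorubicin plus formononetin. Vehicle and doxorubicin libraries did not overlap, while the second doxorubicin plus formononetin library lay just below the highest doxorubicin library. The log2 fold change was -0.51 ± 0.13 with doxorubicin against vehicle (adjusted p = 0.0101), which turned to 0.0353 (adjusted p = 0.792) when scaled to the cardiomyocyte markers, and 0.39 ± 0.13 with formononetin added (adjusted p = 0.0406). The fall missed the threshold without vehicle replicate 2 (adjusted p = 0.05003). The rise was lost in 10 of 19 alternatives, with the highest adjusted p among those that leave out a library (0.152) without doxorubicin replicate 1.

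ACTN2, the muscle alpha-actinin, is the main cross-linker of actin at the Z-disc and binds titin there. It stood at 4358, 3705 and 3787 CPM with vehicle, 2985, 3118 and 3111 CPM with doxorubicin, and 3392, 3161 and 3615 CPM with doxorubicin plus formononetin. The 3 groups were separate, with the doxorubicin plus formononetin libraries between the others. The log2 fold change with doxorubicin was -0.36 ± 0.10 (adjusted p = 0.0171), a call lost without vehicle replicate 1 (adjusted p = 0.0978) or doxorubicin replicate 1 (0.0579), and its sign turned (0.20, adjusted p = 0.0830) when scaled to the cardiomyocyte markers. With formononetin added, the difference from doxorubicin was 0.14 ± 0.10 (adjusted p = 0.315), and from vehicle -0.22 ± 0.10 (adjusted p = 0.297), on the log2 scale.

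LDB3, also called ZASP or Cypher, is a PDZ and LIM domain protein that binds alpha-actinin and keeps the Z-disc intact under load. Its levels were 1402, 1171 and 1173 CPM with vehicle, 936, 1306 and 1339 CPM with doxorubicin, and 1744, 1622 and 1331 CPM with doxorubicin plus formononetin. All groups overlapped their neighbours. The log2 fold changes were -0.07 ± 0.15 with doxorubicin (adjusted p = 0.779), 0.39 ± 0.15 with formononetin added (0.0792) and 0.33 ± 0.15 between doxorubicin plus formononetin and vehicle (0.313). The second passed by DESeq2 (0.39, adjusted p = 0.0433) and without doxorubicin plus formononetin replicate 3 (0.50, adjusted p = 0.0375 by edgeR). The adjusted p of that comparison ranged from 0.0375 to 0.686 over the alternatives.

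**Figure D2:**
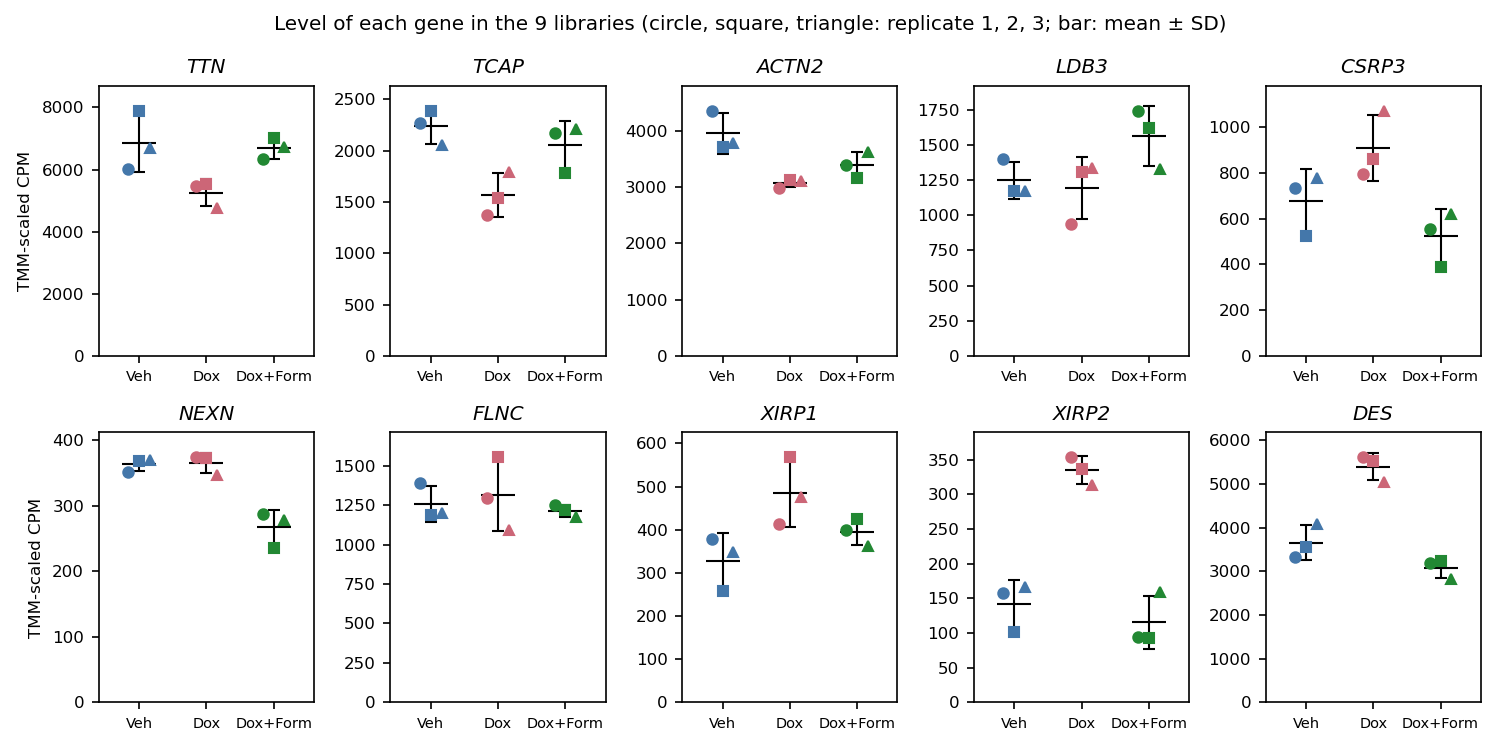
Level of each of the 10 genes in TMM-scaled CPM (vertical axes, from 0) in the vehicle (Veh), doxorubicin (Dox) and doxorubicin plus formononetin (Dox+Form) libraries, with each library as a point and the mean and SD of 3 as a bar. XIRP2 and DES are higher in every doxorubicin library than in any other, and TTN is lower under TMM scaling.

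CSRP3, the muscle LIM protein, sits at the Z-disc, binds telethonin and is known from mice and humans as a gene whose loss causes cardiomyopathy. It stood at 733, 523 and 779 CPM with vehicle, 794, 861 and 1072 CPM with doxorubicin, and 556, 390 and 622 CPM with doxorubicin plus formononetin. All doxorubicin libraries were above all others, by a narrow margin over the third vehicle library. The difference with doxorubicin, 0.42 ± 0.19 on the log2 scale, did not pass (adjusted p = 0.116), and it passed without doxorubicin plus formononetin replicate 2 (0.42, adjusted p = 0.0496) and with offsets for gene length (0.47, adjusted p = 0.0398). Across all the alternatives its adjusted p ranged from 7.04e-04 to 0.373. With formononetin added CSRP3 fell by 0.80 ± 0.19 on the log2 scale (adjusted p = 0.0115), a call made in all 19 alternatives (highest adjusted p = 0.0495).

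NEXN encodes nexilin, an F-actin binding protein of the Z-disc that in mice is also needed for the junctional membranes of the calcium release system. Its levels were 352, 368 and 369 CPM with vehicle and 374, 372 and 347 CPM with doxorubicin, which overlapped. With doxorubicin plus formononetin they were 286, 236 and 277 CPM, below all 6 other libraries. The log2 fold change was 0.01 ± 0.10 with doxorubicin (adjusted p = 0.969) and -0.45 ± 0.10 with formononetin added (adjusted p = 0.00748), the latter called in all 19 alternatives. Against vehicle the difference was -0.45 ± 0.10, just short of the threshold (adjusted p = 0.0515), and its adjusted p ranged from 4.09e-04 by DESeq2 to 0.258 over the alternatives. NEXN was the gene of the 10 with the smallest unadjusted p between doxorubicin plus formononetin and vehicle.

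FLNC, filamin C, is the muscle filamin that cross-links actin and connects the Z-disc to the membrane and to the intercalated disc. It stood at 1390, 1187 and 1199 CPM with vehicle, 1297, 1554 and 1093 CPM with doxorubicin, and 1248, 1219 and 1172 CPM with doxorubicin plus formononetin. The 3 groups overlapped, and the widest spread was within doxorubicin. The log2 fold changes were 0.06 ± 0.13, -0.12 ± 0.13 and -0.05 ± 0.13 in the 3 comparisons, with adjusted p-values of 0.746, 0.532 and 0.866.

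XIRP1 and XIRP2 encode proteins with Xin actin-binding repeats that bind and stabilise actin filaments where cardiomyocytes meet end to end. XIRP2 had 158, 102 and 166 CPM with vehicle, 354, 336 and 314 CPM with doxorubicin, and 94.3, 92.4 and 160 CPM with doxorubicin plus formononetin. The lowest doxorubicin library was far above the highest library of either other group. XIRP2 rose by 1.24 ± 0.22 on the log2 scale with doxorubicin (adjusted p = 0.00185), or 2.36-fold, and fell by 1.53 ± 0.23 on the log2 scale with formononetin added (adjusted p = 8.93e-04). Both were the largest changes among the 10 genes. Both calls were made in all 19 alternatives, and without doxorubicin plus formononetin replicate 2 the changes were 1.24 and -1.39.

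XIRP1 had 379, 258 and 349 CPM with vehicle, 413, 568 and 476 CPM with doxorubicin, and 400, 424 and 362 CPM with doxorubicin plus formononetin. The vehicle and doxorubicin libraries were separate, and the doxorubicin plus formononetin libraries overlapped both. It rose by 0.56 ± 0.16 on the log2 scale with doxorubicin (adjusted p = 0.0174), a call lost without vehicle replicate 2 (adjusted p = 0.0705) or doxorubicin replicate 2 (0.0785). The difference with formononetin added was -0.30 ± 0.16 (adjusted p = 0.180). The ratio of XIRP2 to XIRP1 per kilobase, which does not depend on library scaling, was 0.214, 0.202 and 0.243 in the vehicle libraries, 0.439, 0.303 and 0.338 under doxorubicin, and 0.121, 0.112 and 0.226 under both compounds. Within a library, then, XIRP2 gained on XIRP1 in all doxorubicin libraries. This ratio and the one below were chosen after the values were seen and were not tested.

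Desmin is the main intermediate filament protein of heart muscle. DES stood at 3323, 3556 and 4093 CPM with vehicle, 5613, 5521 and 5045 CPM with doxorubicin, and 3181, 3226 and 2815 CPM with doxorubicin plus formononetin. The 3 groups did not overlap, with doxorubicin highest and doxorubicin plus formononetin lowest. DES rose by 0.56 ± 0.11 on the log2 scale with doxorubicin (adjusted p = 0.00276), or 1.47-fold, and fell by 0.81 ± 0.11 with formononetin added (adjusted p = 5.68e-04). Both calls were made in all 19 alternatives. Between doxorubicin plus formononetin and vehicle its log2 fold change of -0.25 ± 0.11 did not pass (adjusted p = 0.278). The ratio of DES to ACTN2 per kilobase was 1.49 to 2.11 in the vehicle libraries, 3.16 to 3.67 under doxorubicin and 1.52 to 1.99 under both compounds.

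**Figure D3:**
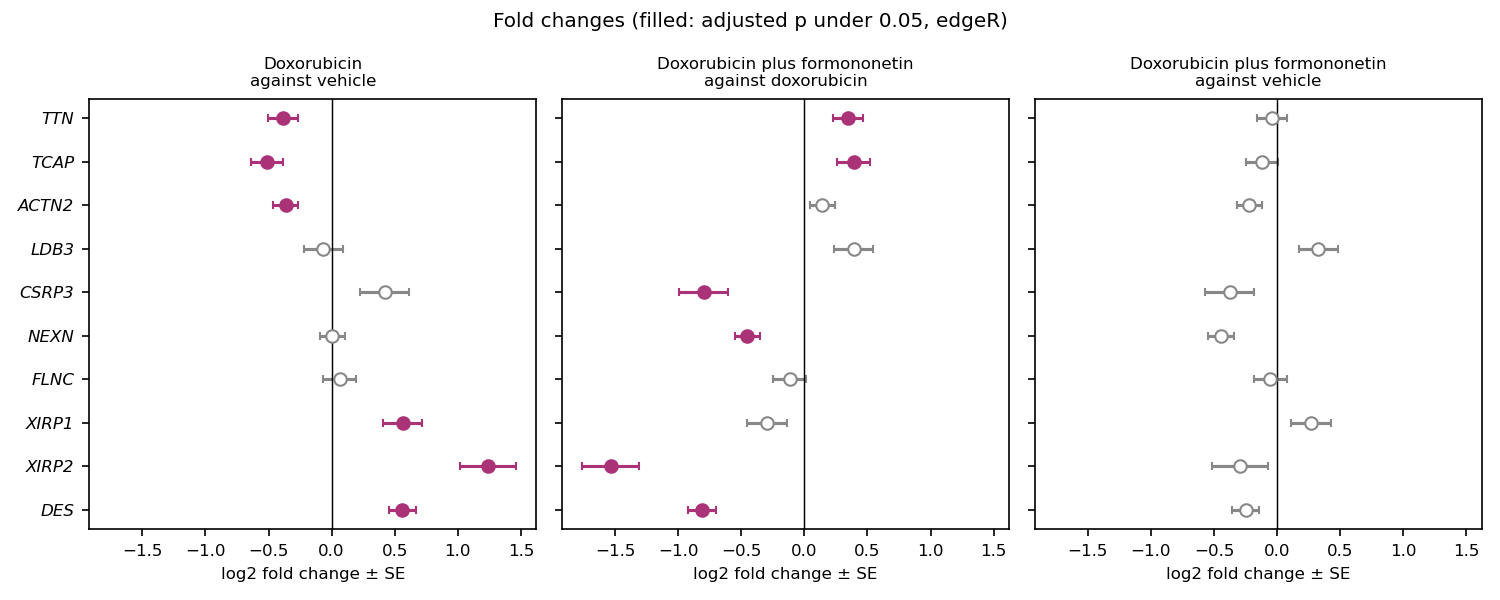
Log2 fold change with its SE for the 10 genes in the 3 comparisons, with filled points for genes called at an adjusted p under 0.05 by edgeR. XIRP2 has the largest change in the first comparison (1.24) and in the second (-1.53), and no point is filled in the third.

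As a set the 10 genes split by direction and did not move together. Their log2 fold changes ran from -0.51 to 1.24 with doxorubicin, with a median of 0.03 against -0.00190 over all genes. With formononetin added they ran from -1.53 to 0.39, with a median of -0.21 against -0.01. Regardless of sign, the median log2 fold change was 0.40 with doxorubicin, against 0.43 over all genes. It was 0.39 with formononetin added, against 0.40, so the 10 genes moved about as far as genes at large. Groups did not overlap for 7 of the 10 with doxorubicin, where 55.3% of all genes had separate groups, and for 6 of the 10 with formononetin added (42.2% of all genes). Between doxorubicin plus formononetin and vehicle, 3 of the 10 were separate, NEXN, DES and ACTN2, all lower (23.6% of all genes). Both the first and the second comparison use the same doxorubicin libraries, so opposite signs in them are partly built in. Without doxorubicin plus formononetin replicate 2, CSRP3 joined the genes called with doxorubicin (4 higher and 3 lower), and with formononetin added 1 was called higher and 4 lower. Those 4 were then CSRP3 at -0.62 (adjusted p = 0.0260), NEXN at -0.37 (adjusted p = 0.0174), DES at -0.84 (adjusted p = 9.67e-04) and XIRP2 at -1.39 (adjusted p = 0.00240). The count called lower with doxorubicin was 1 without vehicle replicate 2 or without doxorubicin replicate 1. Counts over all genes also changed when a library was left out, as given at the end. A change in these counts need not be particular to the 10 genes. Scaling to the cardiomyocyte markers, tried after the data were seen, moved the median of all genes by 0.55 with doxorubicin. Under it 7 of the 10 were called higher and 0 lower. Those calls carry that common shift, and the share of all genes called under this scaling is not given here.

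**Figure D4:**
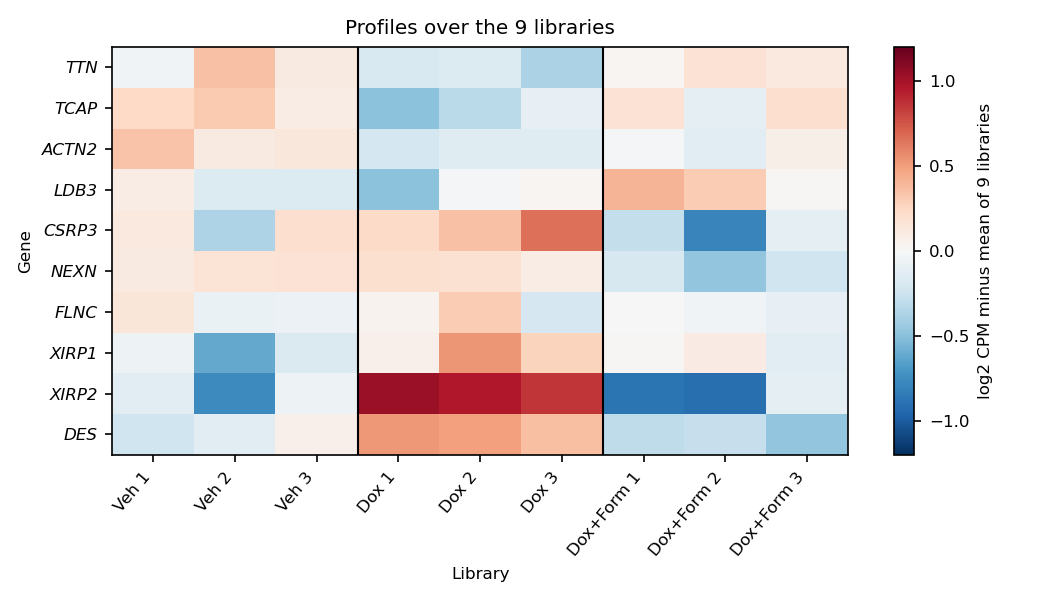
Log2 CPM of the 10 genes in each of the 9 libraries, minus the gene's own mean over the 9, from blue (lower) to red (higher). XIRP2 and DES are red in all 3 doxorubicin libraries, TTN, TCAP and ACTN2 are pale to mid blue there under TMM scaling, and NEXN is blue in the 3 doxorubicin plus formononetin libraries.

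The members closest to each other in profile were TCAP and ACTN2, with a root mean square difference of 0.158 log2 units over the 9 libraries after each was centred on its mean. TTN and ACTN2 (0.199) and TTN and TCAP (0.208) followed. Among 8659 other genes of at least 10 CPM, the profile nearest to ACTN2 was that of MYH7 (0.0576), the myosin heavy chain. Nearest to TTN was the transcription mediator subunit MED16 (0.0496), and nearest to TCAP was the RNA effector SRRT (0.0571), followed by the complex I subunit NDUFB7 (0.0674). DES had SAMD4A (0.0886), an RNA-binding translational repressor, and the phosphate transporter SLC20A1 (0.0970). For XIRP2, whose changes with doxorubicin were the largest of the 10, which widens such differences, the nearest was NUCB2 at 0.178. For XIRP1 it was the transcription factor ETS2 (0.0778), for NEXN the histone deacetylase HDAC9 (0.0627), for CSRP3 NOSTRIN (0.125), for LDB3 the ubiquitin ligase RNF19B (0.0894) and for FLNC the ceramidase ACER3 (0.0706).

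Genes that work with the 10 were taken from 9 lists, of which 108 of 109 entries matched and were tested. With doxorubicin 24 rose and 22 fell (median log2 fold change 0.08), where 16.3% of all genes tested were called higher and 17% lower. With formononetin added 16 rose and 26 fell (median -0.05), where 14.7% of all genes were called higher and 13.5% lower. Without doxorubicin plus formononetin replicate 2 these counts were 27 and 24, and 16 and 20. With formononetin added, the lists described below then had 2 higher and 4 lower among the Z-disc partners, 1 and 2 among the titin-binding stress and stretch proteins, 1 and 1 among the intermediate filaments and anchors, 1 and 3 among the chaperones, 3 and 7 at the costamere and intercalated disc, and 5 and 1 among the transcription regulators. With doxorubicin they had 7 and 3 among the Z-disc partners, 7 and 4 at the costamere and intercalated disc, 2 and 2 among the splicing regulators, and 2 and 6 among the transcription regulators, and the remaining counts of both comparisons were the same with and without it. Against vehicle none of the 108 was called with doxorubicin plus formononetin by edgeR, where 1.76% of all genes were called. Of the 108, 22 had an unadjusted p under 0.05, a threshold for which no share of all genes is given here. DESeq2 called 3 of the 108 and limma-voom 0, and edgeR without that replicate called 1 higher and 1 lower. The counts by list below are to be read beside the shares of all genes given above. Those without that replicate have no share of all genes beside them here.

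Among 23 other Z-disc proteins and relatives of the members, 6 rose and 3 fell with doxorubicin (median log2 fold change 0.14). MYOT, which encodes the titin-like Z-disc protein myotilin, rose by 0.79 ± 0.14 on the log2 scale (adjusted p = 0.00149), from 199 ± 31.8 to 344 ± 25.0 CPM. CSRP2, a LIM protein related to CSRP3, rose by 1.52 ± 0.31 from 4.38 ± 1.17 CPM, and so did the actin capping subunit CAPZA1 (0.76 ± 0.17) and the alpha-actinin partner PDLIM1 (0.70 ± 0.16). With formononetin added 2 of the 23 rose, FLNA and CSRP1, and 6 fell, CSRP2 and PALLD among them. FLNA, the filamin of non-muscle and smooth muscle cells, rose by 1.15 ± 0.26 on the log2 scale, to 385 ± 160 CPM, and CSRP1 rose by 1.55 ± 0.38, to 107 ± 59.7 CPM. The spread of both was wide in that group, where the smooth muscle marker sum also ranged widely.

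Proteins that bind the spring of titin or respond to stretch split. Of 11 tested, 4 rose with doxorubicin and 1 fell (median -0.01). ANKRD1, a titin-bound ankyrin repeat protein of cardiac stress, rose by 1.44 ± 0.27 on the log2 scale (adjusted p = 0.00232), from 703 ± 294 to 1912 ± 272 CPM, and stood at 549 ± 95.8 CPM with formononetin added (-1.80 ± 0.28, adjusted p = 0.00112). Its relative ANKRD23 went the other way, by -1.11 ± 0.16 with doxorubicin and 0.89 ± 0.16 with formononetin added. FHL1, a LIM protein that binds titin, rose by 0.61 ± 0.14 with doxorubicin and fell by 0.88 ± 0.14 with formononetin added, and TRIM54, a muscle RING finger protein, rose by 0.76 ± 0.18 with doxorubicin, all on the log2 scale. At the other end of titin, 3 of 6 M-band and obscurin family genes fell and none rose with doxorubicin (median -0.42). MYOM2, the M-band protein myomesin-2, went from 2635 ± 495 to 1316 ± 127 CPM (-1.002 ± 0.16, adjusted p = 9.09e-04), SPEG changed by -0.78 ± 0.13 and OBSL1 by -0.78 ± 0.14. With formononetin added MYOM2 (0.64 ± 0.16) and SPEG (0.45 ± 0.13) rose. None of the 4 thin filament end genes (TMOD1, TMOD4, LMOD2 and LMOD3) had an unadjusted p under 0.05 in any comparison by edgeR, and DESeq2 and limma-voom called 0. TMOD4 and LMOD3 lay near the floor, with group means of 0.448 to 0.995 and 0.547 to 1.04 CPM. Their log2 fold changes with doxorubicin had SEs of 0.96 and 0.73, so only large changes could have been seen.

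Partners of desmin moved in both directions. Among 11 other intermediate filament and anchor genes, 2 rose and 4 fell with doxorubicin (median 0.01). NES, the intermediate filament protein nestin, rose from 63.7 ± 5.19 to 206 ± 81.8 CPM (1.70 ± 0.24 on the log2 scale, adjusted p = 4.95e-04), and DTNA, a dystrophin-associated protein, rose by 0.54 ± 0.10. DSP (desmoplakin) fell from 661 ± 40.3 to 441 ± 22.04 CPM (-0.59 ± 0.10, adjusted p = 0.00140) and JUP (plakoglobin) by 0.59 ± 0.11 on the log2 scale. Both are desmosomal, and 3 other desmosomal genes, from the costamere and intercalated disc list, did not pass the test, PKP2 at 0.25 ± 0.10, DSG2 at 0.47 ± 0.18 and DSC2 at 0.35 ± 0.13. With formononetin added NES stood at 39.6 ± 8.91 CPM (-2.38 ± 0.25) and DSP rose by 0.48 ± 0.10, while KRT8 fell by 2.12 ± 0.68 on the log2 scale from 14.1 ± 6.65 CPM. Of 10 chaperones that act on desmin or filamin, HSPB7 (0.56 ± 0.12), HSPB2 (0.64 ± 0.16) and HSPB8 (0.31 ± 0.09), all small heat shock proteins, rose with doxorubicin, and DNAJB6 fell by 0.66 ± 0.10 on the log2 scale (median of the list 0.08). All 4 changed in the opposite direction with formononetin added, where 1 of the 10 rose and 4 fell.

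At the costamere and intercalated disc 5 of 23 genes rose and 4 fell with doxorubicin (median 0.12). The gap junction gene GJA1 stood at 430 ± 15.9 CPM with vehicle, 741 ± 36.3 CPM under doxorubicin and 420 ± 10.1 CPM under both compounds. The integrin subunits ITGB1 (0.80 ± 0.11) and ITGA7 (0.74 ± 0.14) rose with doxorubicin and fell with formononetin added (-0.74 ± 0.11 and -1.03 ± 0.14), and TLN2, a talin that links integrins to actin, changed by -0.55 ± 0.09 with doxorubicin. With formononetin added 4 of the 23 rose and 7 fell, SORBS2, an adaptor of the Z-disc and intercalated disc, by 0.94 ± 0.13 on the log2 scale.

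**Figure D5:**
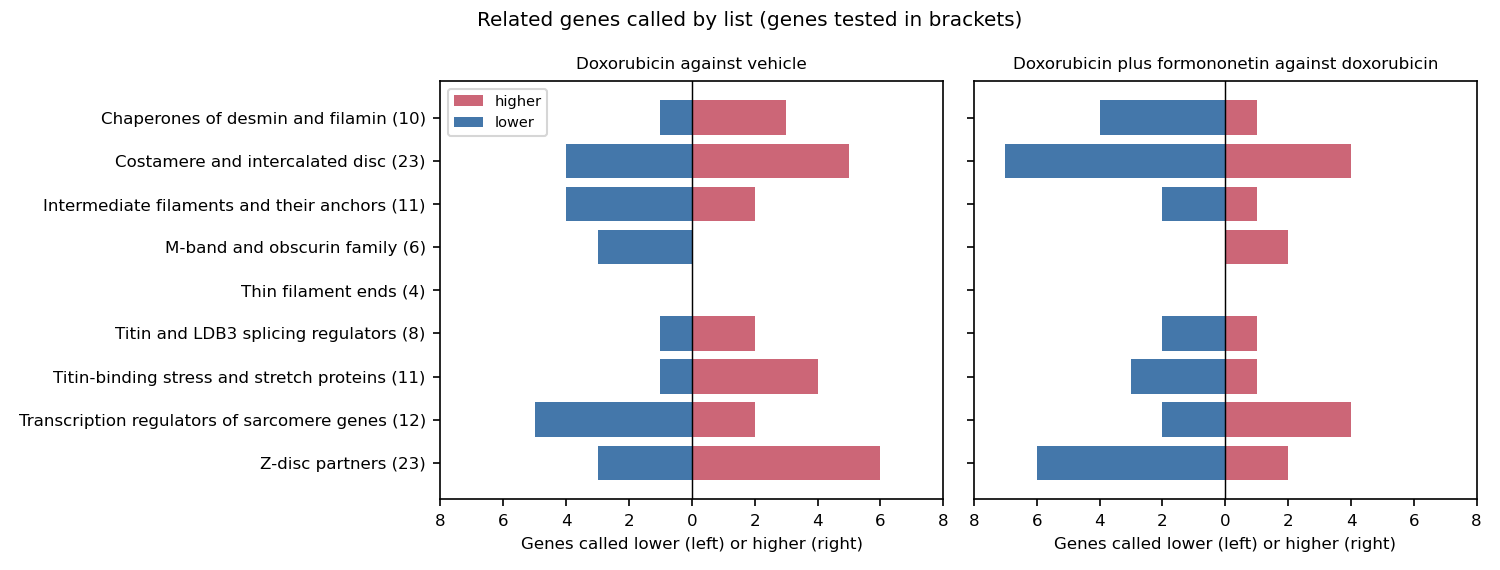
Number of genes called lower (blue, left) or higher (red, right) at an adjusted p under 0.05 by edgeR in each of 9 lists of related genes, with the number tested in brackets, for doxorubicin against vehicle and for doxorubicin plus formononetin against doxorubicin. The Z-disc partner list has 6 genes higher and 3 lower in the first panel and 2 higher and 6 lower in the second. Over all genes tested, 16.3% were higher and 17% lower in the first comparison, and 14.7% and 13.5% in the second.

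Regulators of the members' RNA were followed as well. Of 8 splicing regulators known for titin or LDB3, the muscleblind genes MBNL2 (0.74 ± 0.10) and MBNL1 (0.66 ± 0.09) rose with doxorubicin and PTBP1, a splicing repressor, fell by 0.33 ± 0.10 on the log2 scale (median of the list -0.05). With formononetin added MBNL1 and MBNL2 changed by -0.47 ± 0.09 and -0.45 ± 0.10 and PTBP1 by 0.47 ± 0.10. The counts are per gene and hold nothing on splice forms. Among 12 transcription regulators of sarcomere genes 2 rose, HAND2 and MEF2C, and 5 fell with doxorubicin (median -0.28). SRF, the serum response factor that binds promoters of many muscle genes, went from 94.3 ± 3.64 to 44.95 ± 4.80 CPM (-1.07 ± 0.16, adjusted p = 6.76e-04), and its coactivator MYOCD changed by -0.65 ± 0.19. With formononetin added SRF (0.80 ± 0.16), MYOCD (0.79 ± 0.19) and the SRF coactivator MKL1 (0.84 ± 0.20) rose, and in all 4 of the 12 rose and 2 fell.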

How the data were processed

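RNA of 9 pig heart libraries was measured by sequencing, per the labels' protocols after RNeasy isolation and SMARTER library preparation. The authors deposited raw counts per gene and, in another column, gene lengths in bases. The aligner, counter and annotation release were not stated in the sources used here. Gene identifiers matched RefSeq Sscrofa11.1 for 30335 of 30942 genes, with the same symbol and start. Groups came from the treatment labels.

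Counts were analysed in R 4.3.3 with edgeR 4.0.16: filterByExpr (minimum count 10, leaving 14846 genes), TMM, 1 quasi-likelihood fit over all 9 libraries, and Benjamini-Hochberg adjustment over all genes tested. SE is the absolute log2 fold change over the square root of F. Levels are CPM (per 1e+06 counts), divided by the deposited length in kilobases where genes are compared. The procedure was tested on simulated data. Alternatives used DESeq2 1.42.0, limma 3.58.1, other scalings and filters, and libraries left out. Replicate pairs within a group differed by more than sampling noise (chi-square per degree of freedom 10.2 to 55.6), so the spread between libraries, more than depth, sets the precision.

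The members, lists and tests were chosen with earlier results of these data known. The genes named were the members, up to 4 called genes of smallest p per list and comparison, and the genes nearest in profile. Other genes named were chosen after their values were seen: MYL7, MYL4, NPPA, PLN, PKP2, DSG2, DSC2, PDGFRA, DCN, PTPRC, AIF1, MYH1, MYH2, MYH4 and 4 thin filament genes. Total counts were 16291952 to 17549359 per library.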

Additional observations from a re-analysis of the deposited data

How the results depend on the processing

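Over 19 alternative analyses, DES and XIRP2 kept their calls with doxorubicin, and CSRP3, DES, NEXN and XIRP2 kept theirs with formononetin added. Under all of these but the cardiomyocyte scaling below, the differences that changed sign were near 0 and were not called. With doxorubicin, NEXN was at -0.0360 with upper-quartile scaling and -0.0157 with no filter. Leaving out 1 library gave log2 values of -0.0113 to 0.0412 for NEXN, -0.155 to 0.0842 for LDB3 and -0.0735 to 0.181 for FLNC. With formononetin added it gave -0.235 to 0.0196 for FLNC, and with both compounds against vehicle -0.0928 to 0.0347 for FLNC and -0.115 to 0.0756 for TTN. The causes were not tested.

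Scaling to the summed counts of the cardiomyocyte markers, an alternative chosen after seeing the data, moved the median of all genes by 0.55 with doxorubicin, -0.34 with formononetin added and 0.21 against vehicle with both. By construction it moves every gene alike, and the share of all genes called under this scaling is not given here. With doxorubicin TTN was then at 0.17, TCAP at 0.0353, ACTN2 at 0.20 and LDB3 at 0.48 (called, adjusted p = 0.00586), with 7 members called higher and 0 lower. With formononetin added ACTN2 was at -0.19 and 0 members were called higher. Against vehicle with both compounds TTN was at 0.18, TCAP at 0.10, ACTN2 at 0.00593 and FLNC at 0.17, and 1 member was called higher.

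The members called higher with formononetin added numbered 1 with RLE scaling, 1 with no filter, and 0 with only the 2 groups compared in the fit. Leaving out 1 library gave 0 to 1 there, and 1 to 3 members lower with doxorubicin. Members lower with both compounds against vehicle numbered 1, NEXN, by DESeq2, limma-voom, upper-quartile scaling, no filter and length offsets. Over all genes, that comparison had 398 higher and 350 lower by DESeq2, 81 higher by limma-voom, 267 and 221 with no filter, and 57 and 61 with the 2 groups alone. With formononetin added 1322 genes were lower with the 2 groups alone. Leaving out 1 library gave 29 to 286 genes higher and 35 to 179 lower with both compounds against vehicle, 1327 to 2148 lower with formononetin added and 1557 to 3298 higher with doxorubicin. Same-numbered libraries did not deviate together (9 correlations between -0.167 and 0.0230). The labels do not state whether replicate numbers pair samples, and such correlations among 3 libraries per group cannot settle it. With a replicate block 0 members were called higher with formononetin added, and 64 genes higher and 60 lower with both compounds against vehicle. Depth did not limit the members, which had at least 1550 counts in every library.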
